A study of Mus musculus with 2 samples.

Results

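Cdh6 and 5 other cadherin genes of the kidney, Cdh1, Cdh2, Cdh4, Cdh11 and Cdh16, were followed across the accessible chromatin of E15.5 mouse kidneys, measured in single nuclei by ATAC-seq. Every called peak that overlapped the body of 1 of these genes, or the 2000 bp upstream of it, was taken. That gave 105 of the 159560 peaks called in the Enl-WT library and 72 of the 130027 peaks called in the Enl-T1 library, which joined into 59 of the 110706 regions shared by both. Cdh6 was selected on its measured counts in nephron progenitor-like nuclei, which had already been seen to differ between the libraries, so its values are a description.

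The Enl-WT library came from embryos of genotype Enl+/+ with Wt1GFPCre/+, and the Enl-T1 library from embryos of genotype Enl flox-T1/+ with the same Wt1GFPCre/+ allele. Enl is a reader of acetylated histones, and T1 is a Wilms tumour mutation that lengthens its acetyl-binding domain, here heterozygous and switched on by Cre. The Wt1GFPCre knock-in removes 1 functional copy of Wt1 in both groups and expresses Cre in nephron and stromal progenitors, whereas ureteric bud epithelium and most blood vessel cells arise outside that territory. All mice were on a B6 background and whole kidneys were used. The paper made the T1 allele in hybrid embryonic stem cells that were only partly of B6 origin, and it does not describe backcrossing. The number of embryos pooled for a library is not stated in the text or labels that were read.

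Each group was 1 library, so no test between genotypes was possible. Every interval below is an exact 95% interval that covers counting error only, and each difference compares 2 libraries. Of 9628 Enl-WT and 13376 Enl-T1 barcodes, 9472 and 12635 held between 2000 and 100000 counts and were used as nuclei. The Enl-WT nuclei were deeper, with a median of 14790 counts against 8753 for the mutant library, and 169 barcodes occurred in both libraries. The peaks cannot show the Enl insertion itself, so the genotype labels were not checked against it. Nuclei were grouped without the cadherin regions and named by marker genes. Cell classes were unevenly filled. There were 1222 nephron progenitor-like nuclei in Enl-WT against 1064 in the mutant library, whereas early nephron epithelium-like nuclei numbered 1193 against 93, and podocyte-like nuclei 327 against 0. The progenitor-like class was made of different clusters, with 1221 Enl-WT nuclei in cluster 4 and 977 Enl-T1 nuclei in cluster 10. A further 3019 Enl-T1 nuclei, against 1 Enl-WT nucleus, formed cluster 0. Its best match was the progenitor list, at a score of 0.383 where 0.4 was needed to take the name, so it is given by its number. With coarser clustering, fewer components or doublets removed, a cluster of 4220, 2515 or 2989 Enl-T1 nuclei did take the progenitor name. These clusters held at most 3 Enl-WT nuclei. With a higher minimum of counts per nucleus, a cluster of 2405 Enl-T1 and 2 Enl-WT nuclei stayed unnamed, at a score of 0.362. With finer clustering, a cluster of 1527 Enl-T1 nuclei stayed unnamed, at 0.265. Another cluster there, of 1476 Enl-T1 nuclei, took the progenitor name at 0.450. The name thus depended on the settings.

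Cadherins are calcium-dependent adhesion proteins that bind the same or a related cadherin on the neighbouring cell and, through catenins, join the junction to the actin cytoskeleton. In the developing kidney, mesenchymal progenitors condense, become epithelial and form the nephron, and the cadherins a cell carries change along the way. Cdh2 (N-cadherin) and Cdh11 (OB-cadherin) are classically mesenchymal, Cdh1 (E-cadherin) marks mature tubule and ureteric epithelium, and Cdh16 (kidney-specific cadherin) is found on tubule and collecting duct cells. Cdh6 (K-cadherin) appears in the early nephron as progenitors become epithelial and in cells that form the proximal tubule, and Cdh4 (R-cadherin) is also known from the forming nephron.

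To show a region that bears on each comparison of 4 of the genes, the central 300 bases are given of the shared region with the highest ratio of Enl-T1 to Enl-WT for Cdh6, Cdh1 and Cdh16, and with the lowest for Cdh4, in the class chosen for that gene, together with the sequence just upstream of the Cdh6 start site (250 bases). All are RefSeq GRCm38.p6 sequence on the strand of the gene, 5′ to 3′, and capitals mark exact matches on either strand to 1 of 11 short motifs that were searched. The Cdh6 promoter lies at chr15:13173676-13173925 (minus strand) and held no match. The centre of Cdh6 region 2, an intronic region, lies at chr15:13149710-13150009 (minus strand), with a match to GCGTGGG, a Wt1 and Egr motif. The centre of intronic Cdh4 region 8 lies at chr2:179605113-179605412 (plus strand), with a match to the motif AGATAA of Gata factors. The centre of Cdh1 region 5 lies at chr8:106623137-106623436 (plus strand), with matches to AGATAA, to the Hnf1 motif GTTAAT and to the Hox motif TTTATGG. The centre of Cdh16 region 2 lies at chr8:104606405-104606704 (minus strand), with a match to CAGGTG, the E-box read by Snail and Zeb factors.
Cdh6 promoter: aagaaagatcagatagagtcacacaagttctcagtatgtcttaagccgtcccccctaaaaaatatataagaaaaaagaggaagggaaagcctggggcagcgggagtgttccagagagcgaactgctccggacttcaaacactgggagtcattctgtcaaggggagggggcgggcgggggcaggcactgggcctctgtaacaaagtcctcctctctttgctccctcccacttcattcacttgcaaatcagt
Cdh6 region 2: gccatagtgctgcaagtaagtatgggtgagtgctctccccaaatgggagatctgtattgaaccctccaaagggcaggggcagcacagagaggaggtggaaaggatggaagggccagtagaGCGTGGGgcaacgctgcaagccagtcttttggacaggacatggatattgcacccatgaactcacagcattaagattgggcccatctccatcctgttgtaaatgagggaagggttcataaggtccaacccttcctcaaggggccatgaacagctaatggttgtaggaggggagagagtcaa
Cdh4 region 8: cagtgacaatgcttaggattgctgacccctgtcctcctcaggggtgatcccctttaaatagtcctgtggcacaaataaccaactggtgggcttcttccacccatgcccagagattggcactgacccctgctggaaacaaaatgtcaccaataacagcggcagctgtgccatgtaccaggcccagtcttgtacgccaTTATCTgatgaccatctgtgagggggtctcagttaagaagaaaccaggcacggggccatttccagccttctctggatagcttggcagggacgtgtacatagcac
Cdh1 region 5: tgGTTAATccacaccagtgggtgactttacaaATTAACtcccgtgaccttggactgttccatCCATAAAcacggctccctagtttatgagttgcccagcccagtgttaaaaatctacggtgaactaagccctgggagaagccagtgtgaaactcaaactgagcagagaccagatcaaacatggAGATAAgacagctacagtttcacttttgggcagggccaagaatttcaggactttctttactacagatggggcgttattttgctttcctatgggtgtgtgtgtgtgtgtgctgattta
Cdh16 region 2: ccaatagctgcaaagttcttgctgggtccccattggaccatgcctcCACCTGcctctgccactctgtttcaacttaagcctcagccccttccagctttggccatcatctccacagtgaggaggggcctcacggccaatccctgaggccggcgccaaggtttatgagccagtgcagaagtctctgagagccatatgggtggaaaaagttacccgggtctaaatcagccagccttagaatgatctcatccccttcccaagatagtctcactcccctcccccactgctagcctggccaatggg

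Across the shared cadherin regions, none of the motifs stood out. In windows of 500 bases around the centre of the 46 regions off chromosome 18, CAGGTG occurred in 26.1%, where 29.2% of all 110665 regions off that chromosome held it. AGATAA occurred in 17.4% (21.8% of all regions), and TGANTCA, the AP-1 motif, in 8 of 46 (17159 of 110665). ATCAAAG, the Tcf and Lef motif, was in 0 of 46 windows and in 7.85% of all regions. Of the 6 Cdh6 regions, region 2 held GCGTGGG, region 3 TGANTCA and AGATAA, region 5 GTTAAT and region 6 TTTATGG. A match is a run of letters and not evidence of binding.

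The genes differed greatly in how much of their accessible DNA was called in both libraries. Cdh6, on chr15:13028701-13173675 (minus strand), had 11 peaks in each library, 6 of them shared. Cdh4, on chr2:179442431-179899373 (plus strand), had 49 Enl-WT and 34 Enl-T1 peaks and 27 shared regions. Cdh2, on chr18:16588877-16809246 (minus strand), had 23 and 14 peaks and 13 shared regions. Cdh1, on chr8:106603351-106670246 (plus strand), had 13 and 7 peaks and 7 shared regions. Cdh11, on chr8:102632095-102785642 (minus strand), had 6 and 3 peaks and 3 shared regions, and Cdh16, on chr8:104601911-104624396 (minus strand), had 3 peaks in each library, all shared. Over all 6 genes the deeper Enl-WT library had 46 peaks of its own and Enl-T1 had 13, and Cdh6 contributed 5 to each.

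**Figure D1:**
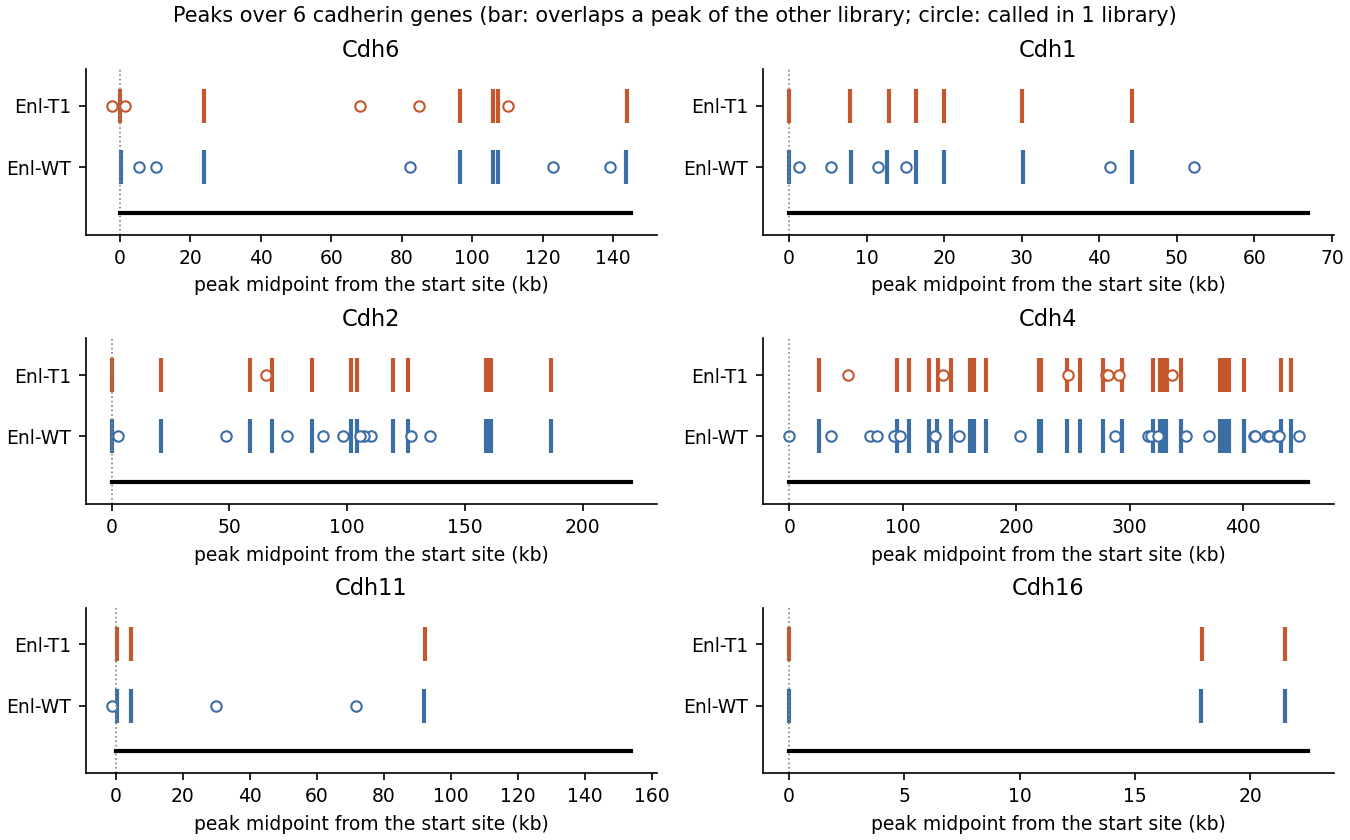
Called peaks of the 6 cadherin genes by distance from the annotated start site (x axis, kb, positive into the gene), 1 panel per gene and 1 row per library. Bars are peaks that overlap a peak of the other library, circles are peaks called in 1 library, and the black line is the gene. Cdh4 carries the most peaks, 27 shared regions, and Cdh16 has its 3 shared regions and none called in 1 library.

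Each cadherin was accessible in its own set of classes. In the Enl-WT library, Cdh6 was highest in early nephron epithelium-like nuclei, at 58.0 counts per 1000000 counts in shared regions (CPM; interval 53.1 to 63.3) over its 6 shared regions. Proximal tubule-like nuclei followed at 48.2 CPM (42.6 to 54.4), distal tubule or loop-like nuclei at 38.2 CPM (32.8 to 44.2), progenitor-like nuclei at 34.0 CPM (30.2 to 38.2) and stroma-like nuclei at 32.8 CPM (30.2 to 35.5). The intervals of neighbours in this order overlapped. Podocyte-like nuclei were at 22.3 CPM, endothelial-like nuclei at 21.7 CPM, ureteric epithelium-like nuclei at 15.3 CPM and immune-like nuclei at 8.89 CPM (2.42 to 22.8).

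In the Enl-T1 library, Cdh6 was highest in cluster 0, at 97.2 CPM (92.1 to 103), followed by progenitor-like nuclei at 75.5 CPM (68.1 to 83.4). The 93 early epithelium-like nuclei had 73.9 CPM (50.6 to 104), an interval that holds both of these values. Stroma-like nuclei were at 41.6 CPM, endothelial-like nuclei at 25.6 CPM, ureteric epithelium-like nuclei at 16.3 CPM and immune-like nuclei at 3.96 CPM (0.480 to 14.3). Thus the progenitor-like class lay below early epithelium-like nuclei in Enl-WT and beside them in Enl-T1.

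The other members were ordered differently. In Enl-WT, Cdh2 was highest in progenitor-like nuclei, at 150 CPM, and lower in early epithelium-like (127 CPM), podocyte-like (73.2 CPM), proximal (63.5 CPM) and distal tubule-like nuclei (61.5 CPM). Cdh4 was about level in early epithelium-like (274 CPM; 263 to 286), progenitor-like (269 CPM; 258 to 280) and podocyte-like nuclei (261 CPM; 238 to 286), with overlapping intervals, and low in stroma (77.4 CPM). Among classes with at least 100 Enl-WT nuclei, Cdh11 was highest in stroma-like (51.9 CPM) and progenitor-like nuclei (47.5 CPM) and low in proximal tubule-like nuclei (13.8 CPM). Cdh1 ran the other way, from 154 CPM in ureteric epithelium-like, 115 CPM in distal and 85.3 CPM in proximal tubule-like nuclei down to 20.4 CPM in progenitor-like nuclei. Cdh16 was at 123 CPM in distal, 117 CPM in ureteric and 109 CPM in proximal tubule-like nuclei, 61.7 CPM in early epithelium-like and 41.4 CPM in progenitor-like nuclei.

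**Figure D2:**
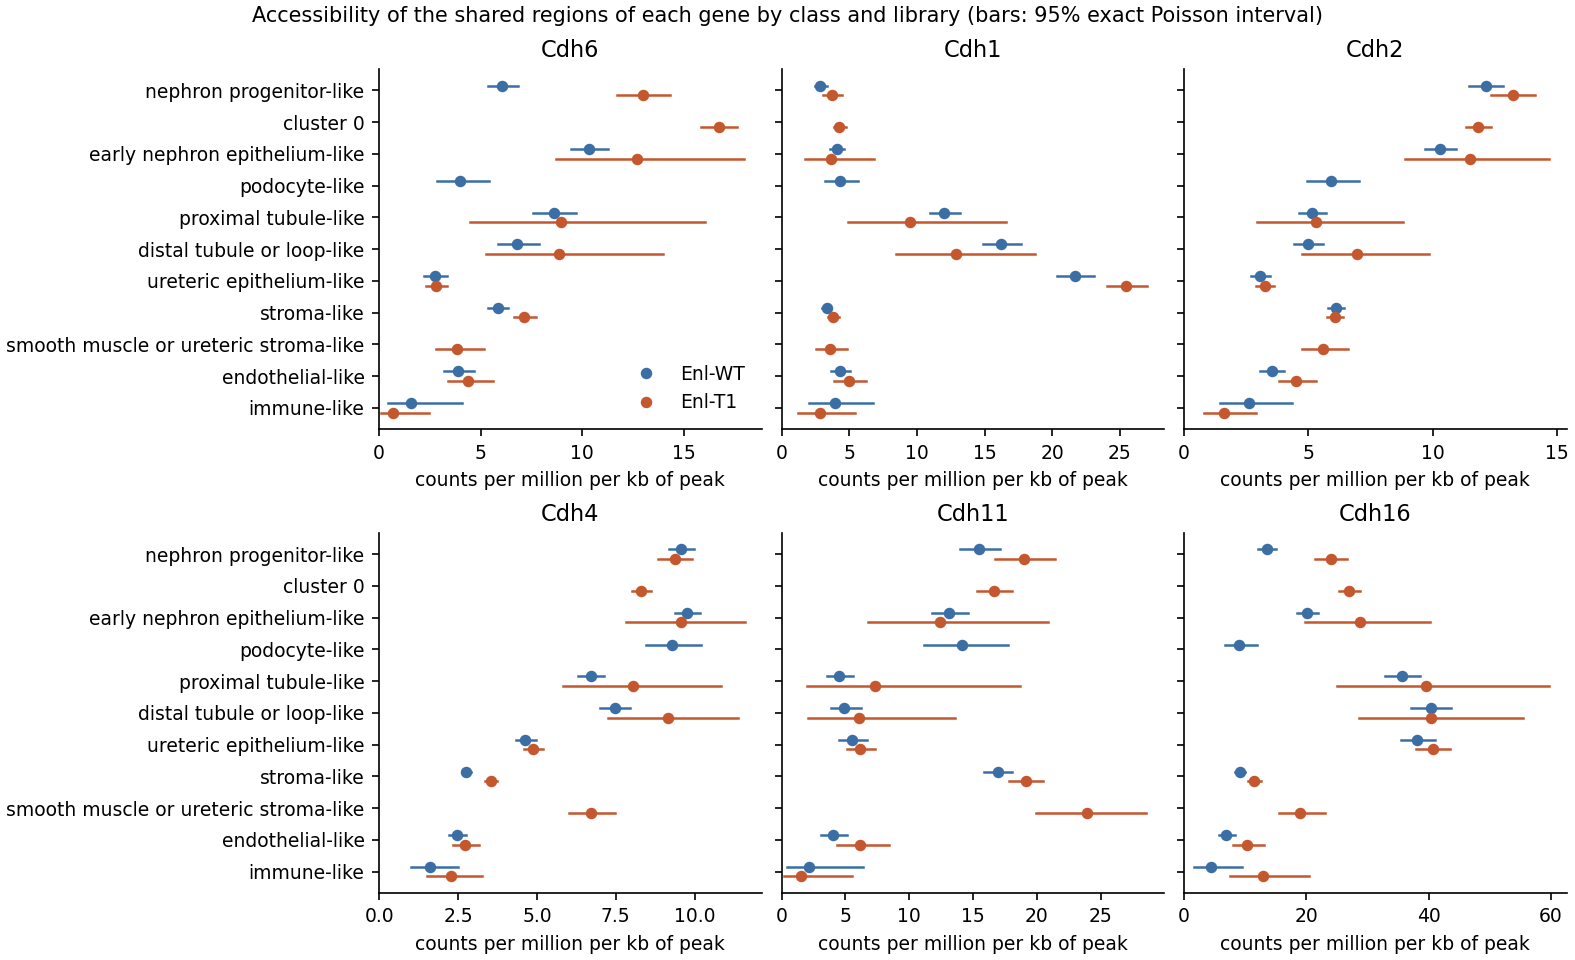
Accessibility of each cadherin gene (x axis, CPM per kb of its shared regions) in the cell classes with enough nuclei, for the Enl-WT and Enl-T1 libraries, with exact Poisson intervals. For Cdh6, cluster 0 of Enl-T1, at 16.7, lies above Enl-WT progenitor-like nuclei, at 6.08, whereas in ureteric epithelium-like nuclei the libraries are at 2.80 and 2.74.

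Over the 15 pairs of class and library with at least 100 nuclei, Cdh6 ran most closely with Cdh2 among the members (Pearson r = 0.88 of log2(CPM + 1)), then Cdh11 (0.70) and Cdh4 (0.65), and not with Cdh1 (0.02). Cdh1 and Cdh16 ran together (0.75). These pairs share 2 libraries and their depths, so the coefficients are descriptive. Among 14910 other genes, those most like Cdh6 over the same pairs were G6pc2 (0.904), Minar2 (0.904), Fads2 (0.903), Cadps (0.902) and Ptprk (0.898).

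Cdh6 was 2.22 times as accessible in the progenitor-like nuclei of Enl-T1 as in those of Enl-WT. It held 568 Enl-WT and 769 Enl-T1 counts, or 34.0 and 75.5 CPM, a log2 ratio of 1.15 (0.92 to 1.37). The start site, region 1, held 270 Enl-WT and 213 Enl-T1 counts, or 16.2 and 20.9 CPM, a log2 ratio of 0.37 (-0.01 to 0.75). Its peak was called narrower in Enl-T1 (836 bp, against 1048 bp), and per kb the start site was at 15.4 and 25.0 CPM, a log2 ratio of 0.70 (0.31 to 1.07). The 5 regions further into the gene, 4 in introns and 1 in the 3′ UTR exon, held 298 and 556 counts together, or 17.9 and 54.6 CPM, a log2 ratio of 1.61 (1.32 to 1.91), which was 1.48 (1.19 to 1.78) with counts divided by peak width. Over the shared regions, the larger part of the difference thus lay inside the gene. A further peak 1.3 kb into the gene, within the start site window, was called in Enl-T1 alone. It was at 6.67 CPM in Enl-T1 progenitor-like nuclei and enters neither value. The 5 inner regions took 52.5% of the gene's Enl-WT counts in shared regions, against 72.3% of those in the mutant library. Their log2 ratio exceeded that of the start site by 1.25 (0.76 to 1.73). On counts not divided by peak width, a shift in the same direction was measured in other nuclei. In endothelial-like nuclei, with fewer counts, the share of the inner regions was 54.7% and 75.2%, an excess of 1.27 (0.23 to 2.37). In stroma-like nuclei it was 65.7% and 72.9%, an excess of 0.48 (0.13 to 0.84). Divided by peak width, the progenitor-like ratios inside the gene and at the start site, 1.48 and 0.70, lay closer together. Peak widths are the same in every class, so this division lowers the excesses of the other classes by the same log2 amount. It leaves little of the stroma-like excess of 0.48, and the endothelial-like excess becomes smaller.

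Region 2, at chr15:13149350-13150371, 23.8 kb into the gene, had the largest Cdh6 ratio. Its counts were 23 in Enl-WT and 98 in Enl-T1, or 1.38 CPM (0.701 to 2.44) and 9.62 CPM (7.11 to 12.7), a log2 ratio of 2.80 (1.86 to 3.87). Regions 2 and 3 were thus the least accessible of the 6 in Enl-WT progenitor-like nuclei. Region 6, at chr15:13029140-13030413 over the 3′ UTR exon, held 46 and 124 counts, or 2.76 CPM (1.75 to 4.14) and 12.2 CPM (9.33 to 15.6), a log2 ratio of 2.14 (1.43 to 2.90). Its peak was called wider in Enl-T1, and per kb the values were 3.02 and 9.55 CPM. Region 5, at chr15:13065862-13066751, 107.4 kb into the gene, held 109 and 195 counts, or 6.53 and 19.1 CPM, a log2 ratio of 1.55 (1.06 to 2.06). The intervals of all 3 log2 ratios lay above 1.

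The remaining regions differed less. Region 4, at chr15:13067302-13068262 and 105.9 kb into the gene, held 96 and 106 counts, or 5.75 and 10.4 CPM, a log2 ratio of 0.85 (0.26 to 1.45). Region 3, at chr15:13076494-13077650, held only 24 and 33 counts, or 1.44 and 3.24 CPM, and its interval reached almost to no difference (0.01 to 2.38). Among the 5 Cdh6 regions with at least 100 counts, 3 were 2-fold or more higher in Enl-T1 and their median log2 ratio was 1.55. Over all 65137 such regions in progenitor-like nuclei, 3.99% were 2-fold or more higher, 3.83% were 2-fold or more lower, and the median log2 ratio was -0.01. At the level of whole genes, 0.322% of 16150 protein-coding genes were 2-fold or more higher, Cdh6 among them, although its interval reached below 2-fold. The gene fell short of 2-fold with a minimum of 5000 counts per nucleus (log2 ratio 0.87), at clustering resolution 2 (0.99) and with cluster 0 and early epithelium-like nuclei included (0.97).

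**Figure D3:**
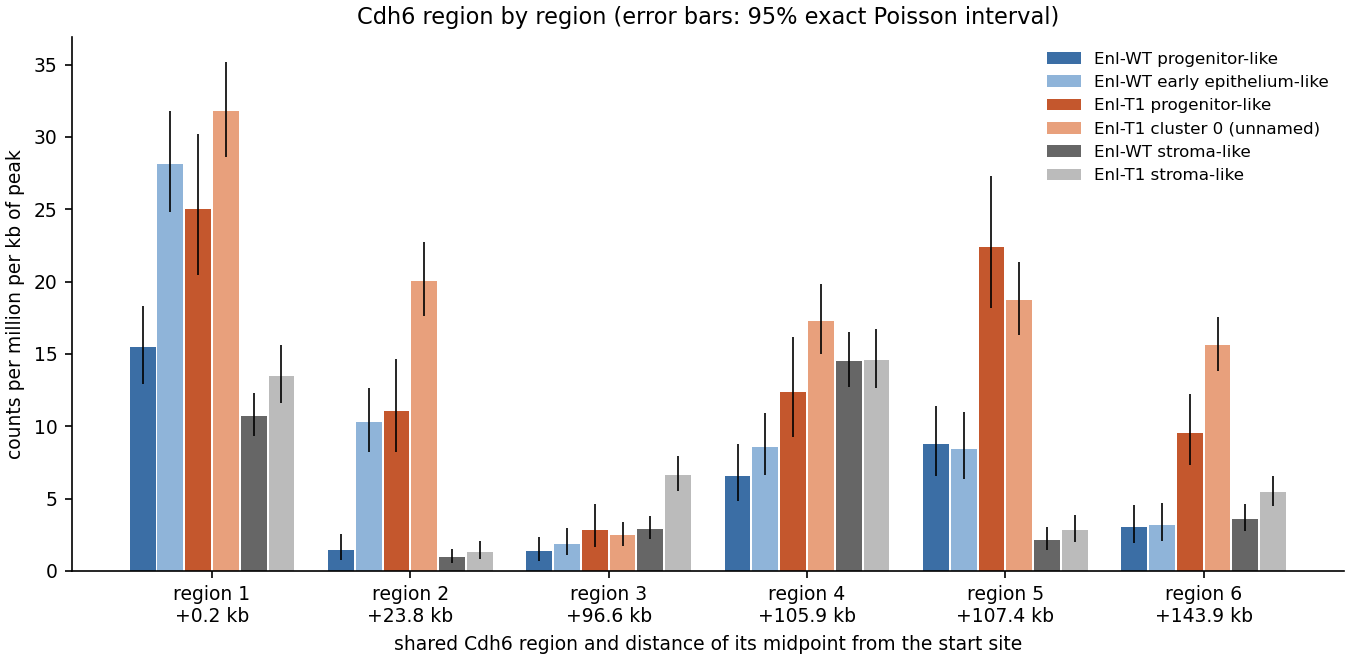
Accessibility of the 6 shared Cdh6 regions (y axis, CPM per kb of each library's peak) in progenitor-like nuclei of both libraries, Enl-WT early epithelium-like nuclei, Enl-T1 cluster 0 and stroma-like nuclei of both, with exact Poisson intervals. From Enl-WT to Enl-T1 progenitor-like nuclei region 1, the start site, goes from 15.4 to 25.0, region 2 from 1.43 to 11.1 and region 6 from 3.02 to 9.55.

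The Enl-WT early epithelium-like nuclei allowed a comparison along differentiation within 1 library. From Enl-WT progenitor-like to early epithelium-like nuclei, Cdh6 as a whole was higher by a log2 ratio of 0.77 (0.56 to 0.98). The largest step was at region 2, from 1.38 to 9.87 CPM, a log2 ratio of 2.84 (1.95 to 3.87), and the start site went from 16.2 to 29.5 CPM, a log2 ratio of 0.87. Regions 5 and 6 showed no such step in Enl-WT, with log2 ratios of -0.05 (-0.62 to 0.52) and 0.09 (-0.79 to 0.97). Thus region 2 had overlapping intervals in Enl-T1 progenitor-like nuclei (9.62 CPM) and Enl-WT early epithelium-like nuclei (9.87 CPM; 7.90 to 12.2), whereas regions 5 and 6, at 19.1 and 12.2 CPM in the former, were at 6.31 CPM (4.76 to 8.22) and 2.93 CPM (1.90 to 4.30) in the latter.

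Cluster 0 of Enl-T1 showed the same regions open. It held 26.6 CPM at the start site, 17.4 at region 2, 2.78 at region 3, 14.6 at region 4, 16 at region 5 and 19.9 CPM at region 6. Against Enl-WT cluster 4, which held nearly all Enl-WT progenitor-like nuclei, the log2 ratio was 0.71 at the start site, 3.66 at region 2, 2.85 at region 6 and 1.98 over the 5 regions within the gene. Against Enl-WT cluster 6, the early epithelium-like nuclei, it was -0.15 at the start site, 0.82 at region 2, 1.34 at region 5 and 2.76 at region 6. These ratios are on counts not divided by peak width. The start site peak was narrower in Enl-T1 (836 bp, against 1048 bp), and per kb the direction there turns. The region 6 peak was wider (1274 bp, against 914 bp), and per kb its ratio is smaller. Against both of these Enl-WT clusters, regions 5 and 6 were more than 2-fold higher in cluster 0.

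Marker levels moved beside these values. The 13 progenitor markers summed to 673 CPM in Enl-WT and 599 CPM in Enl-T1 progenitor-like nuclei, of which 4 were higher and 9 lower in Enl-T1. The 10 early nephron epithelium markers summed to 381 and 460 CPM, with 7 higher and 2 lower, and Hes5 was at 0 in both. In cluster 0 the sums were 494 and 548 CPM, and in Enl-WT early epithelium-like nuclei 561 and 625 CPM. The part of a different mix of nuclei in the Cdh6 values was not tested.

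Depth moved with genotype as well, and the Cdh6 values were therefore set side by side within bands of depth. Between 10000 and 20000 counts there were 987 Enl-WT and 584 Enl-T1 progenitor-like nuclei, in which the regions within the gene were at 17.1 CPM (14.2 to 20.6) and 56.8 CPM (49.0 to 65.6), and the start site at 17.7 and 22.6 CPM. Among nuclei of 5000 to 10000 counts, 79 and 435, the regions within the gene were at 14.5 and 51.2 CPM. Within both bands the regions inside the gene were thus higher in Enl-T1, although the nuclei of a band were not matched in depth. With a minimum of 5000 counts for every nucleus, and clusters made anew, the log2 ratio inside the gene was 1.31. After each nucleus was thinned to 2000 counts, a Cdh6 count was found in 5.16% (3.98 to 6.55) of Enl-WT and 13.3% (11.3 to 15.4) of Enl-T1 progenitor-like nuclei, and in 15.4% of cluster 0. Without thinning the shares were 20.2% and 31.0%. Immune-like nuclei, which should lack Cdh6, gave thinned shares of 1.98% (2 of 101 nuclei, median depth 10209 counts) and 0 of 164 (which allows up to 2.22%; median depth 6417), where the progenitor-like medians were 15534.5 and 10235. Ureteric epithelium-like nuclei stood at 2.73% and 2.80%.

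**Figure D4:**
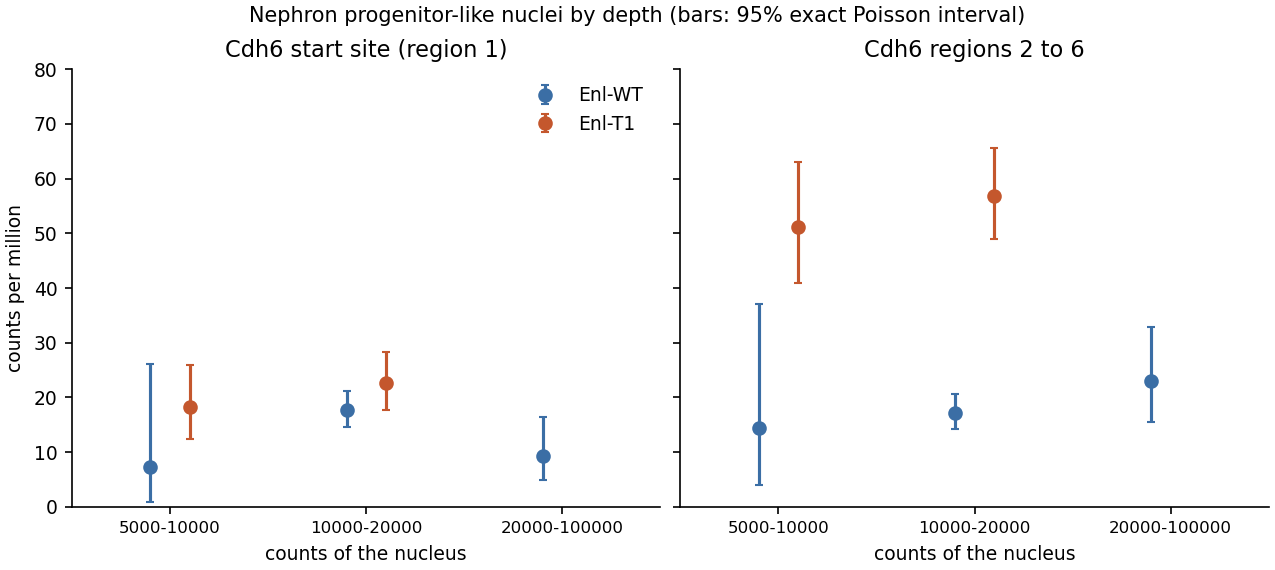
Cdh6 accessibility in progenitor-like nuclei (y axis, CPM, exact Poisson intervals) within bands of counts per nucleus (x axis), at the start site and over the 5 regions within the gene. Between 10000 and 20000 counts the regions within the gene are at 17.1 for Enl-WT and 56.8 for Enl-T1, and the start site at 17.7 and 22.6. Bands with fewer than 50 nuclei are not drawn.

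No region beside Cdh6 with enough counts was past 2-fold. Of 15 shared regions within 200 kb of the gene that belonged to no member, 5 had at least 100 counts in progenitor-like nuclei. Of these 5, 0 were past 2-fold and 4 of 5 lay above 0, with a median log2 ratio of 0.49. Over all regions of the class, 3.99% were 2-fold or more higher, 3.83% lower, and the median was -0.01, so 0 of 5 is near those shares. The flank region 19.6 kb upstream of the start site had a log2 ratio of 0.54 (0.09 to 0.98).

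In stroma-like nuclei Cdh6 differed less as a whole, and at a partly different set of regions. The gene was at 32.8 and 41.6 CPM, a log2 ratio of 0.34 (0.18 to 0.50). Region 3 held 111 and 247 counts, or 3.09 and 7.53 CPM, a log2 ratio of 1.29 (0.82 to 1.77), and region 6 held 118 and 227 counts, or 3.28 and 6.92 CPM, a log2 ratio of 1.08 (0.61 to 1.56). Per kb region 6 was at 3.59 and 5.44 CPM. The start site (log2 ratio 0.01) and region 4, the most accessible Cdh6 region in stroma at 12.7 and 12.3 CPM, were level. Thus 2 of 5 Cdh6 regions were 2-fold or more higher on undivided counts, where 1.69% of 99074 regions were. Per kb of peak, region 6 was less than 2-fold apart. The stroma-like class was also unevenly made up: cluster 8 held 1 Enl-WT and 1099 Enl-T1 nuclei, and cluster 9 held 844 and 211. In ureteric epithelium-like nuclei, mostly outside the reach of the Cre, Cdh6 was at 15.3 and 16.3 CPM, a log2 ratio of 0.09, and in endothelial-like nuclei at 21.7 and 25.6 CPM, a log2 ratio of 0.23. In the endothelial-like nuclei the start site was at 9.85 and 6.34 CPM and the inner regions at 11.9 and 19.2 CPM. In endothelial-like nuclei 8 of the 59 cadherin regions had at least 100 counts and 0 of 8 were past 2-fold, where 0.617% of 34844 regions were higher and 1.57% lower by that margin. Whether the ratio in progenitor-like nuclei differs from those of the other classes was not tested.

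Several Cdh6 peaks were called in 1 library alone. Such a peak has no count in the other library and thus no ratio. An Enl-WT peak 5.4 kb into the gene was accessible in proximal tubule-like (6.14 CPM), distal tubule-like (5.56 CPM) and ureteric epithelium-like nuclei (4.77 CPM) and low in progenitor-like nuclei (0.480 CPM). Another at 10.1 kb was most accessible in early epithelium-like nuclei (5.17 CPM, against 1.08 CPM in progenitor-like nuclei), and 1 at 123.0 kb in stroma (2.98 CPM). The Enl-WT peaks at 82.2 and 139.3 kb were at 2.04 CPM each in progenitor-like nuclei. Of the Enl-T1 peaks, those at 68.2 and 110.2 kb were at 3.93 and 5.99 CPM in progenitor-like nuclei and at 1.40 and 1.68 CPM in stroma. The other 3 Enl-T1 peaks were as accessible elsewhere. The peak 2.4 kb upstream of the start was at 4.02 CPM in progenitor-like, 4.06 CPM in stroma-like and 8.28 CPM in cluster 0 nuclei. The peak at 1.3 kb was at 6.67 CPM in progenitor-like, 8.36 CPM in stroma-like, 9.68 CPM in cluster 0 and 30.8 CPM in the 47 proximal tubule-like nuclei. The peak at 84.8 kb was at 3.53 CPM in progenitor-like and 3.72 CPM in stroma-like nuclei.

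Cdh2, the mesenchymal N-cadherin, differed little in progenitor-like nuclei. It held 2499 Enl-WT and 1744 Enl-T1 counts, or 150 and 171 CPM, a log2 ratio of 0.19 (0.07 to 0.32), and cluster 0 was at 153 CPM. Its start site was at 60.1 and 62.0 CPM, a log2 ratio of 0.04. Of 5 Cdh2 regions with at least 100 counts, 0 were past 2-fold in either direction. Of all 65137 such regions 3.99% were higher and 3.83% lower by that margin, so 0 of 5 is near those shares. Region 13, over an exon 186.6 kb into the gene, went from 29.0 to 36.7 CPM, a log2 ratio of 0.34. An Enl-WT peak 2.5 kb into the gene (11.7 CPM over all nuclei) was not called in Enl-T1 and thus enters no ratio. In stroma-like nuclei Cdh2 was at 75.2 and 78.5 CPM.

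Cdh4, the R-cadherin, was slightly lower in Enl-T1 progenitor-like nuclei, and the difference was uneven along the gene. It held 4484 and 2416 counts, or 269 and 237 CPM, a log2 ratio of -0.18 (-0.28 to -0.08). With counts divided by the width of each library's own peaks the ratio was -0.03, so the small fall depended on peak width. Of 25 regions with at least 100 counts, 3 were 2-fold or more lower, where 3.83% of all regions were, and 0 were 2-fold or more higher. Region 8, 162.8 kb into the gene, held 113 and 21 counts, or 6.77 and 2.06 CPM, a log2 ratio of -1.72 (-2.82 to -0.75). Region 17 was at 5.10 and 2.16 CPM, a log2 ratio of -1.24, and region 25, which overlaps an exon, at 5.40 and 2.36 CPM, a log2 ratio of -1.20. All 3 were regions of few counts. Cluster 0 differed from the Enl-T1 progenitor-like nuclei at region 8, with 6.21 CPM, and was at 2.36 CPM at region 17 and 3.86 CPM at region 25. Region 22, the most accessible, was at 40.1 CPM in Enl-WT and 30.4 CPM in Enl-T1 progenitor-like nuclei and at 17.2 CPM in cluster 0. Its direction turned per kb of peak, to 20.8 and 28.0 CPM, whereas regions 8, 17 and 25 stayed lower in Enl-T1 per kb.

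The Cdh4 start site was called in Enl-WT alone, at 18.6 CPM over all nuclei and 35.4 CPM in podocyte-like nuclei, so the gene has no ratio there. Enl-WT peaks at 77.7, 410.6 and 203.3 kb were also high in podocyte-like nuclei, at 46.3, 27.2 and 25.4 CPM, a class with 0 nuclei in Enl-T1. In stroma-like nuclei 19 Cdh4 regions had at least 100 counts. Of these, 1 was 2-fold or more higher and 0 were lower by that margin, where 1.69% and 1.04% of 99074 regions were. The higher one was region 5 at 131 kb, with 40 and 147 counts and a log2 ratio of 2.01 (1.28 to 2.80). Its Enl-WT peak spanned 542 bp and its Enl-T1 peak 1258 bp, and per kb the values were 2.05 and 3.56 CPM.

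Cdh11, a cadherin of mesenchyme and stroma, was nearly level over its shared regions in its own class. In stroma-like nuclei it held 1865 and 1631 counts, or 51.9 and 49.8 CPM, a log2 ratio of -0.06 (-0.20 to 0.08), and per kb of peak 16.9 and 19.1 CPM, a log2 ratio of 0.18. The 3 regions had log2 ratios of -0.05, -0.22 and 0.12. Of these, 0 of 3 were past 2-fold, where 1.69% of 99074 regions were higher and 1.04% lower by that margin. Region 2 also overlaps Gm45258, and counts there cannot be assigned to either gene. In progenitor-like nuclei Cdh11 was at 47.5 and 49.3 CPM. Its 3 peaks called in Enl-WT alone enter no ratio. Among them, the peak 1.2 kb upstream of the start site was at 11.5 CPM in Enl-WT stroma-like and 12.4 CPM in Enl-WT progenitor-like nuclei.

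Cdh1, the E-cadherin of mature epithelium, was nearly level over its shared regions in ureteric epithelium-like nuclei. Its 6 peaks called in Enl-WT alone enter no ratio. Among them, the peak 15.1 kb into the gene was at 18.7 CPM in Enl-WT ureteric epithelium-like nuclei. Over the shared regions the values were as follows. Cdh1 held 1936 and 2357 counts, or 154 and 153 CPM, a log2 ratio of -0.01 (-0.13 to 0.11), and per kb of peak 21.7 and 25.5 CPM, a log2 ratio of 0.23. Of its 7 regions, 0 were past 2-fold, where 1.65% of 61772 regions were higher and 0.612% lower by that margin. Region 5 was the farthest from 0, at 16 and 25.8 CPM, a log2 ratio of 0.68 (0.33 to 1.04), whereas region 1, the start site, was at 41.6 and 35.8 CPM, a log2 ratio of -0.22. In progenitor-like nuclei Cdh1 stayed low in both libraries, at 20.4 and 22.2 CPM, and early epithelium-like nuclei of Enl-WT were at 28.9 CPM. In stroma-like nuclei regions 2 and 6 were 2-fold or more lower in Enl-T1, with log2 ratios of -1.15 and -1.11, where 1.04% of regions were. Per kb of peak they were less than 2-fold apart, at 1.51 and 1.26 CPM for region 2 and 3.12 and 1.82 CPM for region 6.

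Cdh16, the kidney-specific cadherin, differed by class. In ureteric epithelium-like nuclei it held 1470 and 1691 counts, or 117 and 110 CPM, a log2 ratio of -0.09 (-0.24 to 0.05). Of its 3 regions, 0 were past 2-fold, where 1.65% of 61772 regions were higher and 0.612% lower by that margin. Its start site was at 67.3 and 54.8 CPM, a log2 ratio of -0.30 (-0.49 to -0.10), and the ratio of the other regions exceeded it by 0.45 (0.15 to 0.74). In progenitor-like nuclei the gene was at 41.4 and 64.6 CPM, a log2 ratio of 0.64 (0.42 to 0.86). This came from region 2, 17.8 kb into the gene, with 221 and 336 counts, or 13.2 and 33.0 CPM, and a log2 ratio of 1.32 (0.96 to 1.68), although its peak was narrower in Enl-T1. The start site (3.0 and 3.93 CPM) and region 3 (25.2 and 27.7 CPM) differed by less than their intervals. Region 2 was at 23.0 CPM in Enl-WT early epithelium-like nuclei and 37.3 CPM in cluster 0. In Enl-WT the step from progenitor-like to early epithelium-like nuclei was a log2 ratio of 1.79 at the start site and 0.79 at region 2.

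**Figure D5:**
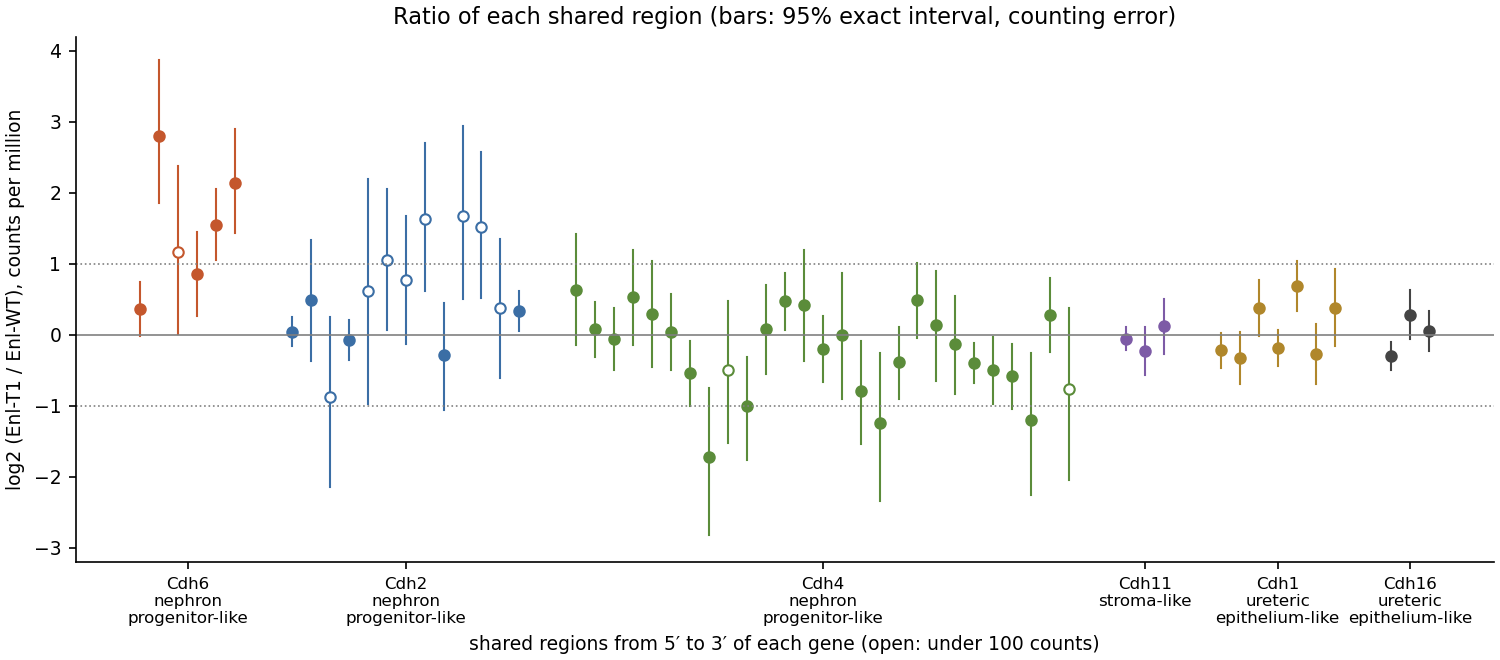
Log2 ratio of Enl-T1 to Enl-WT CPM (y axis) for every shared region of each cadherin, in order along the gene, each gene in the class chosen for it, with exact intervals for counting error; open points had fewer than 100 counts over both libraries. Cdh6 regions lie above 0, up to 2.80 at region 2, whereas the Cdh4 regions spread down to -1.72 and the Cdh11, Cdh1 and Cdh16 regions stay between -1 and 1.

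Of 29 other cadherins, catenins and repressors of Cdh1 transcription, 28 had at least 100 counts in progenitor-like nuclei. Their median log2 ratio was -0.05, where that of all protein-coding genes was -0.01, and 12 of 28 lay above 0. Cdh19 alone passed 2-fold, with 30 and 90 counts and a log2 ratio of 2.30 (1.43 to 3.25), and 0 of 28 were lower by that margin. Of all protein-coding genes 0.322% were higher and 0.427% lower. Cdh19 had only 1 shared region, and of single regions in this class 3.99% were 2-fold or more higher. In ureteric epithelium-like and stroma-like nuclei 28 genes each, and in endothelial-like nuclei 24, had enough counts, and 0 were past 2-fold in any of these classes. Over all protein-coding genes, 0.161% were higher and 0.068% lower by that margin in ureteric epithelium-like, 0.114% and 0.084% in stroma-like, and 0.333% and 0.0732% in endothelial-like nuclei.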

How the data were processed

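Whole kidneys were profiled by single-nucleus ATAC-seq (10x Chromium), 1 library per genotype. The authors aligned reads to mm10 and called peaks per library with Cell Ranger ATAC (version 2.1.0, per the labels), and deposited unfiltered counts of cut sites per peak and barcode, mostly even since both ends of a fragment were counted. The values are raw counts. Intervals were therefore computed on fragments (counts divided by 2), as exact Poisson or binomial 95% intervals. PCR duplicates aside, they cover counting error only. The authors' filters on fragments in peaks, blacklisted regions and start site enrichment were not applied. After its own filters the paper kept fewer nuclei than were used here, by a larger margin for Enl-T1 than for Enl-WT.

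Barcodes with 2000 to 100000 counts were kept. Peaks of the libraries that overlapped were joined into 110706 shared regions, which held 88.8% of all counts of the Enl-WT library against 94.9% of those in Enl-T1. CPM is counts per 1000000 counts in shared regions. Nuclei were clustered on 110580 regions, without the 59 cadherin regions, by latent semantic indexing (components 2 to 30) and Leiden clustering (resolution 1), with Python 3.11.15, NumPy 2.4.6, pandas 2.3.3, SciPy 1.17.1, scikit-learn 1.9.0, igraph 0.11.9 and leidenalg 0.10.2. Of 27 clusters, 20 were named from marker genes as "X-like". The level a leading gene had to reach to count in that naming was set to 100 CPM after the clusters had been seen. Doublets were kept, and an alternative removed 730 Enl-WT and 1352 Enl-T1 nuclei. Thinning drew 2000 counts from each nucleus.

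Peaks were assigned to genes by GENCODE M21, start sites by a window of 1000 bp. A log2 ratio was given where both libraries had at least 100 nuclei in the class, and a region was counted as past 2-fold only with at least 100 counts over both libraries and 0.5 added to each count. A peak called in 1 library has no count in the other. With 1 library per group no test was run. The members and lists were chosen with earlier results of these data known. The genes named were the 6 members, other cadherins and partners past 2-fold, and the 5 genes most like Cdh6. Ratios were checked on simulated counts. Alternatives changed the depth minimum, clustering, naming, scaling, region matching and peak width.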

Additional observations from a re-analysis of the deposited data

How the results depend on the processing

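Of the gene ratios, and those of Cdh6 at and away from its start site, none whose interval lay on 1 side of 0 changed direction under the alternatives run, whereas Cdh4 region 22 did per kb of peak. Of the alternative values, 109 stayed within the counting error of the reported one and 18 did not. The Cdh6 gene ratio in progenitor-like nuclei, 1.15 as reported, was 1.49 over regions matched in both libraries alone, 0.87 with a minimum of 5000 counts per nucleus, 1.46 with nuclei thinned to 2000 counts and 1.42 with cluster 0 included. Its ratio within the gene, 1.61, was 1.31 with the 5000 minimum and 2.08 with thinning. The number of Cdh6 regions past 2-fold, 3, was 0 with thinning, which leaves fewer counts, and 1 with a region minimum of 200 counts. The Cdh2 ratio, 0.19, was 0.32 with thinning. The Cdh4 ratio, -0.18, was -0.34 at clustering resolution 0.5, -0.29 with components 2 to 15, -0.30 with doublets removed, -0.31 with cluster 0 included, -0.32 with cluster 0 and early epithelium-like nuclei included, and -0.032 with counts divided by peak width. Dividing by peak width also moved the Cdh11 ratio from -0.06 to 0.18, Cdh1 from -0.01 to 0.23 and Cdh16 from -0.09 to 0.095; the intervals of these 3 reported ratios span 0. Cluster 0, peak width and the band of 10000 to 20000 counts were added after the data were seen. The start site ratio over matched regions alone was not run, since region 1 was not matched. The causes of these moves were not tested, apart from the construction named. No paired analysis was possible because each genotype was 1 library. Depth limits single regions: every ratio of a cadherin region under 100 counts had an interval wider than 2-fold.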
